A study of Mus musculus with 20 samples.

Results

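Gata1, Gata2, Tal1, Lmo2, Lyl1, Zfpm1 and Nfe2 encode blood transcription factors that act in shared DNA-bound complexes or beside them. They were chosen by name, 7 of the 19738 genes to which the authors' lists assign at least 1 peak. Their 439 peaks, of 504887 in 10 lists, merged into 78 of the 88351 regions formed by joining peaks of different lists that overlap by at least 1 bp. A peak belongs here when the deposited annotation names 1 of the 7 genes as its nearest gene.

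The assay was ATAC-seq, which inserts adapters into open chromatin with the enzyme Tn5, and the material was cultured mouse ER-Hoxa9-Lys-GFP cells of strain C57BL/6. The 20 samples are 2 replicates each at 4, 8, 12, 24, 36, 48, 72, 96 and 120 h after estradiol (E2) was washed out, and 2 replicates of untreated cells kept with E2 (0 h). As background, the name describes the homeobox factor Hoxa9 fused to an estrogen receptor, which needs E2 to be active, and a fluorescent reporter of lysozyme gene activity. Every group carries both, and every group was grown in RPMI medium with serum and medium conditioned for stem cell factor (SCF). All samples come from cells of this name grown in vitro, and the labels do not say whether they are 1 clone. Since nuclei were split over 2 Tn5 reactions, the replicates may be technical. Both replicates of a time share 1 deposited peak list, so no spread between replicates and no p-value can be given, and counts in order of time below run through 0, 4, 8, 12, 24, 36, 48, 72, 96 and 120 h. Read depth is unknown, and the intervals below are 95% Wilson intervals that cover counting error only.

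The GATA factors bind the GATA sequence through zinc fingers. Tal1 and its relative Lyl1 are basic helix-loop-helix proteins that bind E-box DNA with an E protein partner, and Lmo2 is a LIM-domain adaptor that bridges them, through Ldb1, to GATA factors. Zfpm1, also called Fog1, is a zinc finger cofactor of GATA factors, and Nfe2 is the blood-specific subunit of NF-E2, which pairs with a small Maf protein. Gata2 is known from stem and progenitor cells and mast cells, and Gata1 from erythroid, megakaryocyte, mast and eosinophil cells, neither being characteristic of mature neutrophils.

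The whole lists set the scale for these genes. The 120 h list held 23620 peaks of 617 bp median width, against 55261 peaks of 474 bp in the 0 h list. Granulocyte markers had peaks at both ends of the course. The 9 neutrophil genes had 19 peaks at 120 h against 10 at 0 h, with 6 genes higher, 2 equal and 1 lower. The 5 genes of immature granulocytes had 3 at 120 h and 16 at 0 h, with all 5 lower. Ctsg and Prtn3, proteases of immature granulocytes, each had 0 and 4, and Ltf, a granule protein gene of mature neutrophils, had 4 and 0. Mmp8, the neutrophil gene that was lower, had 1 and 3. Macrophage and monocyte markers had 14 and 21, with 4 of 5 genes lower and 1 higher, and Adgre1 had 4 and 8. Erythroid markers had 6 peaks in the 120 h list and 14 in the 0 h list, with 3 of 6 genes lower and 3 equal. Those counted as equal include the globin genes Hba-a1 and Hbb-b1, which have close copies and no peak in any of the 10 lists. Megakaryocyte markers had 2 and 11, with 4 of 5 genes lower and 1 equal. Mast cell and basophil markers had 4 and 9, with 2 of 4 genes lower. The 2 equal genes of that set, Fcer1a and Ms4a2, had no peak in any list. Beside these marker counts, 65.5% of all genes with a peak in some list had fewer peaks at 120 h than at 0 h. Among genes with at least 4 peaks at 0 h the share was 95.1%. The part of a changing mix of cells in the counts below was not tested, and in a bulk culture fewer cells with a site open and a site less open in each cell cannot be told apart.

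The promoters of these genes are shown first, because promoter and distal sites differed in how long they stayed listed. Of the 7 genes, 5 have a promoter in the RefSeq table of build GRCm38.p6 (the sequence of mm10), as 7 windows from 250 bases before to 50 bases after a start. Those of Gata2 at both starts, of Tal1 at its upstream start, of Lyl1 and of Gata1 are printed 5′ to 3′ on the gene's strand. They cover a start listed up to 96 h, a start still listed at 120 h, a start with a GATA sequence, a start listed throughout and a start never listed. Capitals mark AGATAA and the variant TGATAA as GATA motifs, CCGGAA as the ETS motif, and CAGCTG and the variant CAGATG as E-boxes, searched on both strands, with no overlap between motifs of different factors in these windows.
Gata2 upstream start, chr6:88193641-88193940, + strand: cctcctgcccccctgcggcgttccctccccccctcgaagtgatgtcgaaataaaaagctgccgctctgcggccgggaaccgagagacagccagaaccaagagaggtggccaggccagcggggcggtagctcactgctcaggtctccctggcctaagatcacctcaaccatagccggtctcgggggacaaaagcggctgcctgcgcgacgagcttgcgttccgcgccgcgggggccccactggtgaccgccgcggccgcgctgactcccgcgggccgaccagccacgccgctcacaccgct
Gata2 downstream start, chr6:88198414-88198713, + strand: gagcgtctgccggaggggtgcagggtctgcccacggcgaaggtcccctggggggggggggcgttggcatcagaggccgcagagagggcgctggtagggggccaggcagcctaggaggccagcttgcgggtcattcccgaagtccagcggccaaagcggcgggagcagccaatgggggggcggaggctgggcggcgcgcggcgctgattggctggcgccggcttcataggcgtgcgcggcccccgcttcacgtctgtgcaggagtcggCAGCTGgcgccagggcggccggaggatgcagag
Tal1 upstream start, chr4:115056176-115056475, + strand: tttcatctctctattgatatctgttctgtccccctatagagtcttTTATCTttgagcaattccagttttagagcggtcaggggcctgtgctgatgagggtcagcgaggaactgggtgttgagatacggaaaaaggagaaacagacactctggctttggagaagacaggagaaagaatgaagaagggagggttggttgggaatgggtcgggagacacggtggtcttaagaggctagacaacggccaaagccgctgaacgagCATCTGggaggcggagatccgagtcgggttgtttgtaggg
Lyl1, chr8:84701207-84701506, + strand: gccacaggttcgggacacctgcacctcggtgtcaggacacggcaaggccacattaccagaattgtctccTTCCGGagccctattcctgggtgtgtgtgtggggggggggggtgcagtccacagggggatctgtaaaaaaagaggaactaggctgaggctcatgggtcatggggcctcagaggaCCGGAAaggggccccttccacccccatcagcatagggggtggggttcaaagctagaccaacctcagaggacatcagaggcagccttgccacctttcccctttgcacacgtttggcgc
Gata1, chrX:7967861-7968160, - strand: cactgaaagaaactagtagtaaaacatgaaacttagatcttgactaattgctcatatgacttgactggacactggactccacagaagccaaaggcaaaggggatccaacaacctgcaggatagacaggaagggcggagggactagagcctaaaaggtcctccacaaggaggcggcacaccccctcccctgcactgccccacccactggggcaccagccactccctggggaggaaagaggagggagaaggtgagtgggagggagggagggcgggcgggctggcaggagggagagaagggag

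The motifs were few in these windows. The upstream Tal1 window, printed because of its GATA sequence, held 1 GATA motif and 1 E-box. The downstream Gata2 window held 1 E-box and the Lyl1 window 2 ETS motifs. No motif letters were found in the upstream Gata2 and Gata1 windows, or in the windows not printed, those of Zfpm1 and the downstream Tal1 start. Of all 32851 promoter windows in the table, 18.6% held the GATA motif, 14.9% the ETS motif and 30.6% the E-box, so a single match is common. The Gata2 windows were rich in CG pairs, with 32 at the upstream and 29 at the downstream start, against a median of 7 over all windows and 4 in the Gata1 window. The Zfpm1 window held more, at 37. The downstream and upstream Tal1 windows held 22 and 11, and the Lyl1 window 7. A match describes letters only and does not show that a factor was bound.

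At 120 h each of the 7 genes had fewer peaks than at 0 h, and distal peaks made up nearly the whole difference. In order of time, the genes together had 47, 53, 50, 51, 47, 58, 51, 42, 22 and 18 peaks. The count stayed between 42 and 58 up to 72 h and was below that range in both later lists. Promoter peaks, at most 1000 bp from a transcription start site (TSS), numbered 7 at 120 h and 8 at 0 h, and distal peaks 11 at 120 h and 39 at 0 h. The log2 ratio of 120 h to 0 h, with 0.5 added to each count, was -1.36 for the 7 genes and -1.23 for all peaks. For distal peaks it was -1.78 for the 7 genes and -1.61 for all distal peaks. The genes thus held 7.62 of every 10000 peaks at 120 h and 8.51 at 0 h. Over the 10 lists this share ranged from 7.38 at 96 h to 9.72 at 36 h, without a steady course. Without Zfpm1, a choice made once the values were known, the log2 ratio was -0.88, less negative than that of all peaks. With fewer peaks at 120 h stood 65.5% of all 19738 genes, and 95.1% of the 5170 genes with at least 4 peaks at 0 h, a group in which 6 of 6 members, all but Gata1, also had fewer. The median log2 ratio was -0.89 over the 7 genes, -0.74 over all genes and -1.44 over genes with at least 4 peaks at 0 h. When all lists were cut to their 23620 widest peaks, the log2 ratio was -0.41 and 4 of 7 genes had fewer peaks at 120 h. The shares of all genes given above are for the full lists and were not computed for the cut lists.

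**Figure D1:**
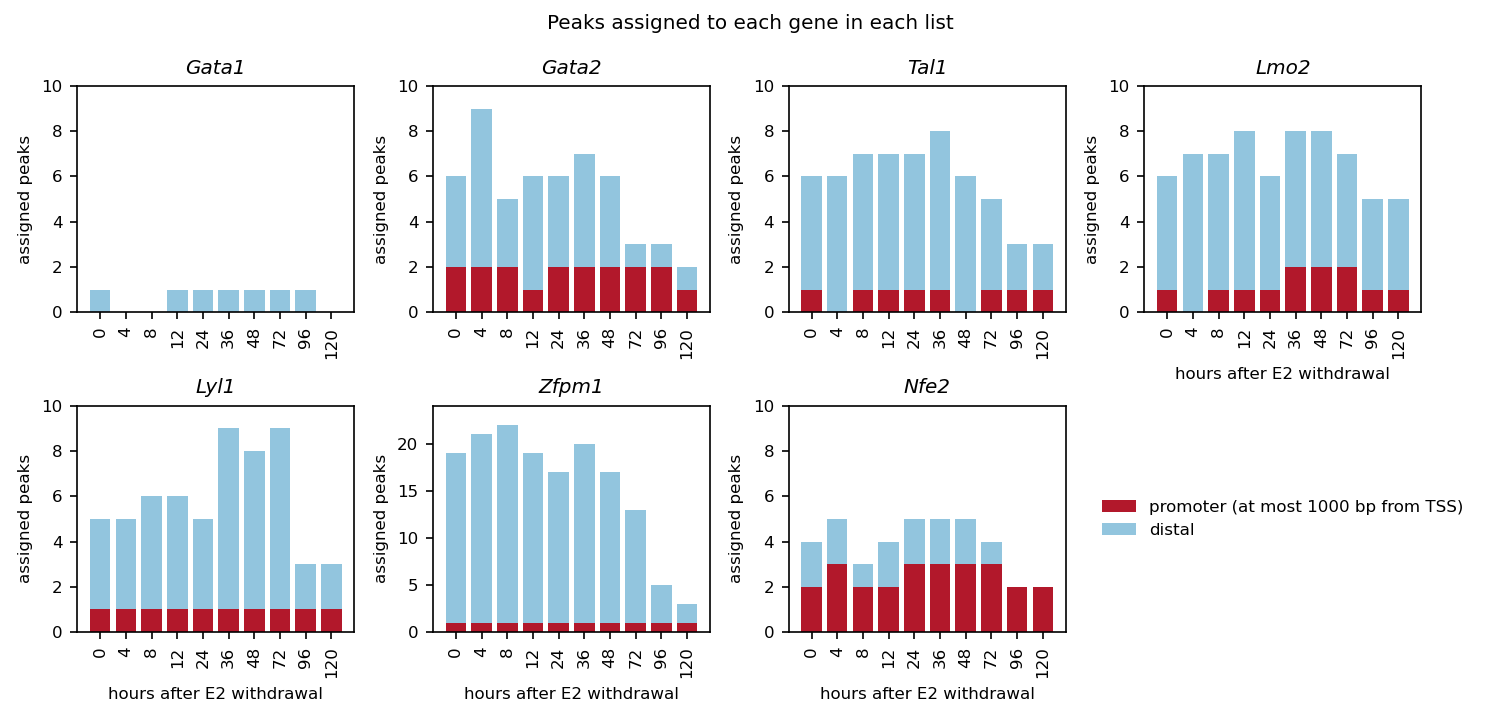
Bars give the number of peaks assigned to each gene (y axis) in the list of each time after E2 withdrawal (x axis, hours, unevenly spaced times drawn at equal steps), with promoter peaks in red and distal peaks in blue; Zfpm1 has a taller y axis. Promoter peaks number at most 3 in any gene and list, while the distal peaks of Zfpm1 number 2 at 120 h and 18 at 0 h.

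Sites listed at 0 h were followed through the course. Of the 39 distal 0 h peaks of these genes, the lists from 4 h on overlapped 33, 32, 32, 26, 29, 28, 23, 10 and 6 in order of time. The share at 120 h was 15.4% (7.25 to 29.7%), against 22.5% of all distal 0 h peaks, which lies inside that interval. The 72, 96 and 120 h lists overlapped 8, 7 and 6 of the 8 promoter peaks, the last a share of 75% (40.9 to 92.9%), against 75% of all promoter 0 h peaks. The largest step among distal sites fell between 72 and 96 h: 18 of the 32 distal regions listed at 72 h were in neither of the later lists, against 48% of all distal regions listed at 72 h. Of the 39 distal regions listed at 0 h, 12 had 72 h as their last list, or 30.8%, and over all such regions the share was 24.3%. Distal 0 h peaks that were overlapped at 120 h had a median width of 597 bp (307 to 891 bp, n = 6), and those that were not had 464 bp (227 to 1659 bp, n = 33). Over all distal 0 h peaks these medians were 538 and 406 bp, so the overlapped peaks had the wider median in both sets.

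**Figure D2:**
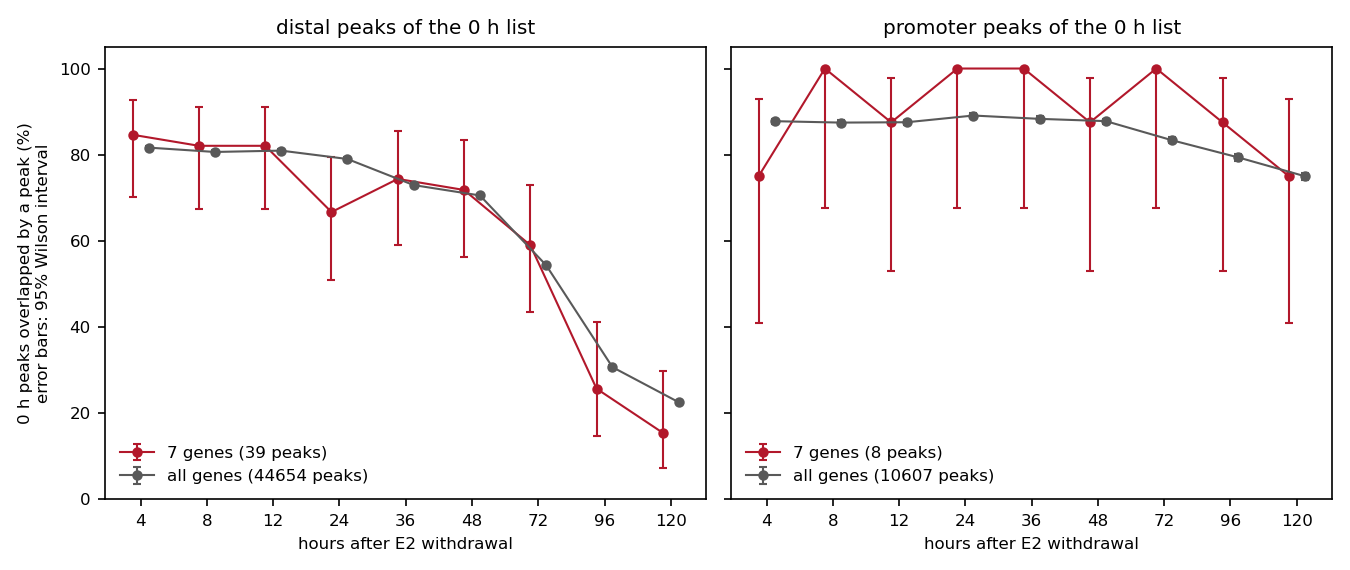
Points give the percentage of 0 h peaks (y axis) overlapped by at least 1 bp in the list of each later time (x axis, hours), for the 7 genes in red and for all genes in grey, with distal peaks left and promoter peaks right; bars are 95% Wilson intervals. For distal peaks the grey points lie inside every red interval, and both sets drop most between 72 and 96 h, to 25.6% for the 7 genes and 30.6% for all genes at 96 h.

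The 78 regions were sorted by pattern. Regions listed at 0, 4 and 8 h and absent at 72, 96 and 120 h are called lost, the reverse gained, and those in all 10 lists constant. The genes had 8 lost, 1 gained and 8 constant regions, and the remaining 61 had other patterns. Over all regions, 12.5% were lost, 2.38% gained and 13.8% constant. Of the constant regions, 3 were promoters, those of Lyl1, of Zfpm1 and of 1 start of Nfe2, and 5 were distal. At 120 h, 18 of the 78 regions were listed, of which 12 were also listed at 0 h and 6 were not. In addition, 7 of the 78 regions were in 1 list only. The shares over all regions were not computed for these listing counts, so they describe the regions and show nothing particular to these genes. By the deposited annotation 40 regions were intergenic (51.3%) and 19 intronic (24.4%), and of all regions 41.6% were intergenic and 41.6% intronic.

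**Figure D3:**
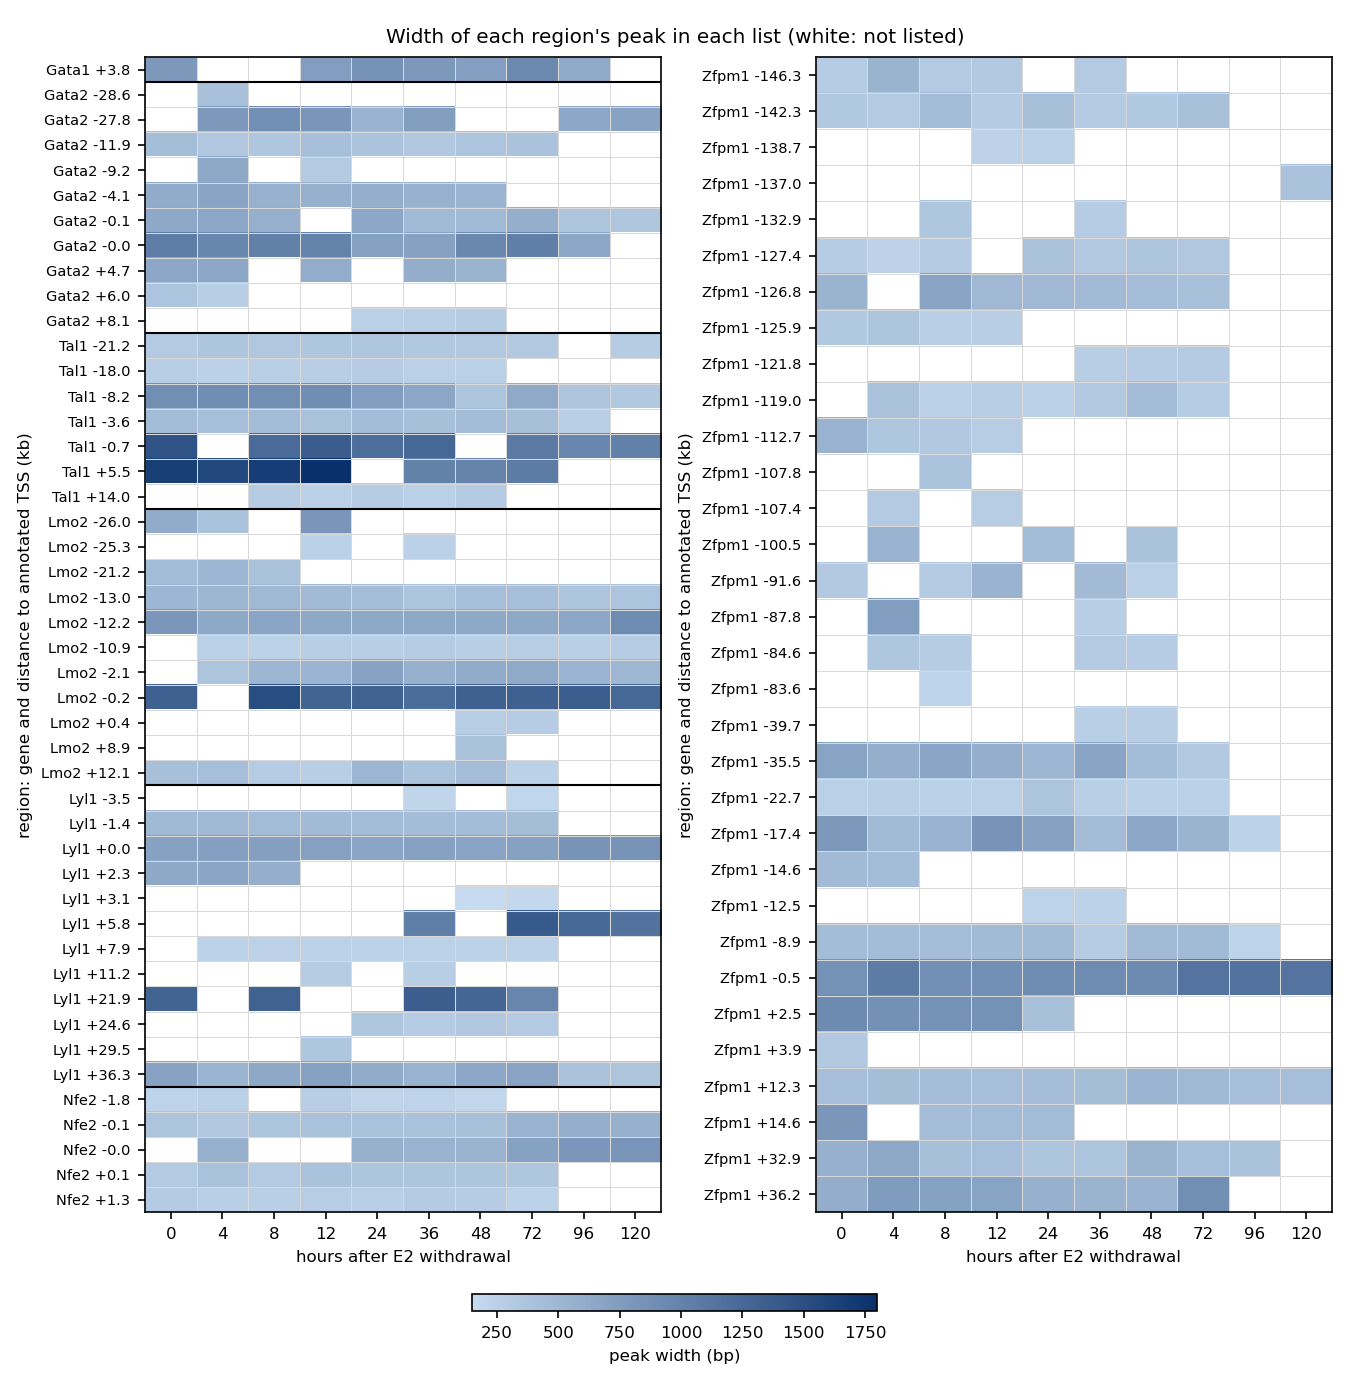
Each row is 1 region, named by gene and distance of its widest peak from the annotated TSS in kb (negative upstream), and each column is the list of 1 time (hours); colour gives the summed peak width in bp and white means not listed. Most distal rows are white at 96 and 120 h, and the promoter rows of Lyl1 and Zfpm1 and 1 of the 3 promoter rows of Nfe2 run through every list.

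Gaps within a run of lists were frequent and were read with care. A region of these genes that was listed in the lists before and after a given time was absent at that time in 24 of 275 cases, or 8.73%, and the share over all regions was 8.59%. The Lmo2 promoter and the Tal1 promoter were both absent at 4 h, although their peaks were 1322 and 1454 bp wide at 0 h and 1514 and 1225 bp wide at 8 h. Such an absence at 4 h was found at 8.45% of all promoter regions listed at 0 and 8 h. Without read counts, a closed site and a peak missed in 1 list cannot be told apart.

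Gata2 had 2 of its 10 regions listed at 120 h. Its gene lies on chromosome 6, 88193891 to 88207032, and in order of time it had 6, 9, 5, 6, 6, 7, 6, 3, 3 and 2 peaks. The count was at most 3 from 72 h on. The log2 ratio of 120 h to 0 h was -1.38. Its starts, whose sequences are printed above, followed different courses: the region over the upstream start (88193332 to 88194413) was 654 bp wide at 96 h, 1058 bp at 0 h and not listed at 120 h. The region over the downstream start (88198259 to 88198927) was 344 bp wide at 120 h against 630 bp at 0 h, with a gap at 12 h. The upstream Gata2 start is the only promoter site of the 7 genes that was in 9 lists and missing at 120 h.

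Distal Gata2 sites were mostly early. An intronic region centred 9.5 kb from the upstream start (88203029 to 88203693) was listed at 0, 4, 12, 36 and 48 h, at 526 to 665 bp, and never from 72 h on. Its position matches the +9.5 element, an enhancer that is known to be needed for blood stem cells to form in mice. A region at -4.1 kb (88189440 to 88190124) was listed from 0 to 48 h, at 523 to 677 bp, and is the lost region of this gene. A region at -11.9 kb was listed up to 72 h. The other late Gata2 site, at -27.8 kb (88165638 to 88166571), was 693 bp wide at 120 h, was absent at 0, 48 and 72 h and was listed at the other times.

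Gata1 had a single region and no promoter peak in any list. It lies in intron 1, 3.8 kb from the start named by the deposited annotation and 12.6 kb from the RefSeq 5′ end of the gene (chromosome X, 7959260 to 7976663), at 7963625 to 7964585. Its widths at 0, 12, 24, 36, 48, 72 and 96 h were 787, 747, 850, 790, 723, 938 and 626 bp. It was not listed at 4, 8 and 120 h. The absence of Gata1 from the promoter peaks covers all 10 lists, whereas the other 6 genes had a promoter peak at 0 h and again at 120 h. The 120 h list held a promoter peak for 77.2% of all genes that had one at 0 h.

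Zfpm1 contributed most of the distal difference. It encodes the GATA cofactor Fog1 and lies on chromosome 8, 122281856 to 122337862. In order of time it had 19, 21, 22, 19, 17, 20, 17, 13, 5 and 3 peaks. Both late lists held fewer peaks than any earlier list. The log2 ratio of 120 h to 0 h was -2.48. Of its 32 regions, 18 lie more than 80 kb upstream of the start, and 0 of these were listed at 96 h and 1 at 120 h, against 7 at 0 h. The 1 listed at 120 h (122144897 to 122145296) was in no other list, so it is not among those 7. Of all distal 0 h peaks, 22.5% were overlapped at 120 h. Of the 32 regions, 24 overlap the RefSeq span of the neighbouring gene Zfp469, so their assignment to Zfpm1 rests on nearest-start distance. Without Zfpm1, a choice made once the values were known, the other 6 genes had 15 peaks at 120 h against 28 at 0 h, 23.8% of their distal 0 h peaks were overlapped at 120 h, and 4 of their regions were lost.

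Among sites assigned to Zfpm1 at its promoter and inside the gene, some stayed. The promoter region (122281019 to 122282189) was in all 10 lists, at 1139 bp at 120 h against 856 bp at 0 h. An intron 1 site 12.3 kb from the start (122294176 to 122294698) was constant as well, at 423 bp at 120 h against 422 bp at 0 h. A nearer intron 1 site, 2.5 kb from the start (122284223 to 122285146), measured 923 bp at the start of the course, 402 bp at 24 h, and was absent from 36 h on. Sites in intron 3, at 32.9 and 36.2 kb, were last listed at 96 and 72 h. Sites in introns 4 and 5 are assigned to Trhr2 and are not in these counts. The intron 5 site (122332944 to 122333509) was in all 10 lists, at 219 bp at 120 h against 403 bp at 0 h. Those in intron 4 were last listed at 72 h.

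Tal1 had its promoter and upstream sites listed at 120 h, and no other assigned site inside or 3′ of the gene. Its gene lies on chromosome 4, 115056426 to 115071755, and in order of time it had 6, 6, 7, 7, 7, 8, 6, 5, 3 and 3 peaks. The log2 ratio was -0.89, but with lists of equal length Tal1 had 3 peaks at 120 h against 3 at 0 h, a ratio of 0. Its promoter region (115056421 to 115057881) was 1018 bp wide at 120 h against 1454 bp at 0 h, with gaps at 4 and 48 h. A constant region at -8.2 kb (115047655 to 115048683) was 329 bp wide at 120 h against 891 bp at 0 h. The printed window at the upstream Tal1 start was overlapped by a peak at 0, 8, 12 and 24 h only, and neither Tal1 window was overlapped at 120 h. A region at -3.6 kb was listed up to 96 h. A wide region over exon 3 (115062455 to 115064283) spanned 992 to 1797 bp in the 7 lists that held it, the last of them at 72 h. Its sites at -21.2 and -18.0 kb lie within the neighbouring gene Stil. That at -21.2 kb was 292 bp wide at 120 h against 307 bp at 0 h, and that at -18.0 kb is the lost region of Tal1.

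Lyl1, the close relative of Tal1, had a promoter peak in every list. The gene lies on chromosome 8, 84701423 to 84704716, and in order of time had 5, 5, 6, 6, 5, 9, 8, 9, 3 and 3 peaks. Its highest counts were thus at 36 to 72 h, later than those of Zfpm1, and the log2 ratio of 120 h to 0 h was -0.65. The promoter region (84701078 to 84701930), which contains the ETS motifs printed above, was 838 bp wide at 120 h against 701 bp at 0 h. A region toward the 3′ end of the gene, at 2.3 kb (84703465 to 84704136), was listed at 0, 4 and 8 h only. The single gained region of the 7 genes is also assigned to Lyl1, 5.8 kb from its start (84706588 to 84708023), and measured 1032, 1384, 1257 and 1145 bp in the 36, 72, 96 and 120 h lists. That region lies in the 3′ UTR of the neighbouring gene Nfix, and 7 of the 12 Lyl1 regions overlap Nfix, so it may belong to either gene.

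Lmo2, the adaptor, had nearly as many assigned peaks late as early. The gene lies on chromosome 2, 103957903 to 103981878, and in order of time had 6, 7, 7, 8, 6, 8, 8, 7, 5 and 5 peaks. Its range of 5 to 8 over the 10 lists includes both ends of the course. The log2 ratio was -0.24, but with lists of equal length, as above, the gene had 5 peaks at 120 h against 3 at 0 h, a ratio of 0.65. With all peaks within 100 kb of the start, whatever their assigned gene, there were 8 at 120 h against 14 at 0 h, a ratio of -0.77. Its wider promoter region (103969315 to 103970828), centred 12.2 kb from the 5′ end of the gene, was 1257 bp wide at 120 h against 1322 bp at 0 h. Another promoter region, 0.4 kb from the upstream start (103958206 to 103958501), was listed at 48 and 72 h only. The distances of the sites that follow are from that upstream start. A pair of adjacent intergenic regions at -13.0 and -12.2 kb (103944755 to 103945266 and 103945307 to 103946228) were constant, the second at 915 bp at 120 h against 809 bp at 0 h. Regions at -10.9 and -2.1 kb were absent at 0 h and listed in every list from 4 h on, at 289 and 494 bp at 120 h. In contrast, the region at -21.2 kb was listed at 0, 4 and 8 h only, and that at -26.0 kb was last listed at 12 h.

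Nfe2 held several annotated starts with unlike courses. The gene lies on chromosome 15, 103248212 to 103258403, and in order of time had 4, 5, 3, 4, 5, 5, 5, 4, 2 and 2 peaks. The log2 ratio was -0.85, but with lists of equal length there were 2 peaks at 120 h and 0 at 0 h. All Nfe2 peaks at 96 and 120 h were promoter peaks. One promoter region (103252612 to 103253232) was constant, at 562 bp at 120 h against 363 bp at 0 h. A second (103255155 to 103255585) was listed in every list up to 72 h, at 306 to 398 bp, and in neither later list. The third, over the most upstream start (103258037 to 103258859), was absent at 0, 8 and 12 h, 562 bp wide at 4 h, and listed from 24 h on, with widths of 563, 544, 547, 699, 808 and 823 bp in order of time. Median peak width over the whole lists was also greater at 120 h than at 0 h, as given above, and its part in these widths was not tested.

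The deposited nearest-gene rule leaves out distal sites that lie nearer to another start, so all regions within 100 kb of each gene's 5′ end were listed as well. The elements named here were chosen after their values were seen. For Gata2 the region centred at -76.8 kb (chromosome 6, 88116572 to 88117576), assigned to Mir6376, was in all 10 lists, at 991 bp at 120 h against 991 bp at 0 h. Its position matches the -77 element, an enhancer of Gata2 that is known from mouse myeloid and erythroid progenitors. This site and the intronic one at 9.5 kb therefore followed different courses in the lists. Other regions within 100 kb of Gata2, centred at -87.4, -70.4 and 71.6 kb, were in all 10 lists as well. For Tal1 a region centred at 39.9 kb, assigned to Pdzk1ip1, was listed from 0 to 48 h at 985 to 1471 bp and absent from 72 h on (115095552 to 115097095). It matches the +40 element, an enhancer of Tal1 that is active in erythroid cells of mice. Regions at 18.4 and 19.2 kb, at the place of the +19 stem cell enhancer of Tal1, were listed at 0 and 4 h and at 4, 8, 12, 36 and 48 h, each with none after 48 h. With all peaks within 100 kb, the 7 genes had 52 peaks at 120 h against 121 at 0 h, a log2 ratio of -1.21, and each gene had fewer at 120 h.

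**Figure D4:**
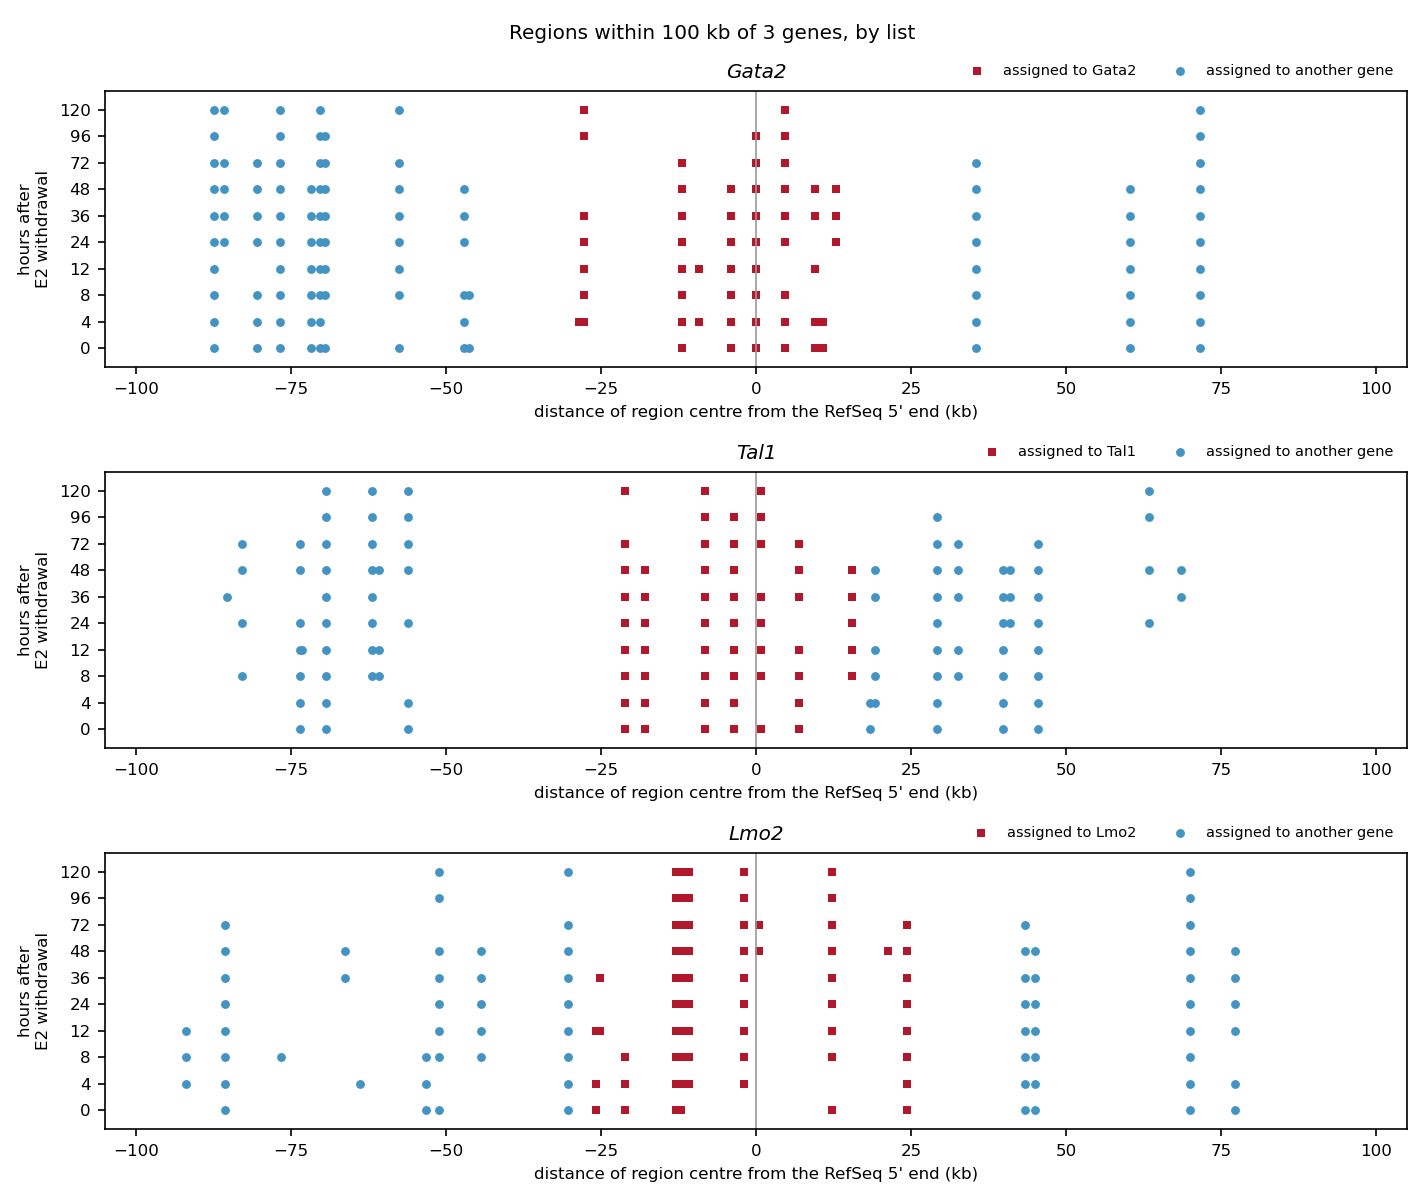
Each mark is a region listed at a time (y axis, hours, 0 h at the bottom) at the distance of its centre from the RefSeq 5′ end of the gene (x axis, kb, negative upstream), as red squares where assigned to the gene and blue circles where assigned to another. The Gata2 regions at -87.4, -76.8, -70.4 and 71.6 kb run through all 10 lists. Marks of Tal1 between 18.4 and 19.2 kb and at 39.9 kb end at 48 h.

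Partners, relatives and targets of the complex were described by lists. Of 17 partner genes, which include Ldb1, the E proteins, Runx1, Fli1 and Erg, 15 had fewer peaks at 120 h than at 0 h, 2 as many and 0 more, with 63 peaks at 120 h and 141 at 0 h. The median log2 ratio of these genes was -1.03. Of all genes with at least 4 peaks at 0 h, 95.1% had fewer at 120 h and the median was -1.44, and over all genes with a peak these values were 65.5% and -0.74. Cbfa2t3, the corepressor also called Eto2, had 0 peaks at 120 h against 9 at 0 h, and Lmo1, a relative of Lmo2, had 1 and 11. Runx1 had 13 and 27, and Erg had 4 and 12. Ldb1, the direct partner of Lmo2 and picked here after its values were seen, had 2 and 4.

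Relatives and downstream genes differed in how many had fewer peaks at 120 h. Of 10 paralogues, of which 7 had a peak in some list, 4 had fewer, 5 as many and 1 more. Those counted as having as many include Gata4, Gata6 and Lmo3, which had no peak in any list. The median log2 ratio of 0 also counts these genes, so it cannot be set beside the median over all genes with a peak. Gata3, a T lineage factor, had 1 peak at 120 h and 5 at 0 h. Gata5 had 0 and 4. Among the small Maf and Bach genes, whose proteins pair with or compete with Nfe2, 4 of 5 had fewer, and Bach2 had 1 at 120 h and 11 at 0 h, Bach1 5 and 14, while Maff, named as the exception, had 1 and 0. Erythroid and megakaryocyte targets had 19 peaks at 120 h against 52 at 0 h, with 12 of 20 lower and 1 higher, and 17 of the 20 had a peak in some list. Among them were the platelet genes Gp9 with 1 and 6, Itgb3 with 4 and 9 and Vwf with 2 and 7. Mast cell and basophil targets had 15 and 42, with 6 of 9 lower, and 7 of the 9 had a peak in some list, such as Kit, the SCF receptor, with 2 and 11, and Mitf, a mast cell factor, with 6 and 16. Hdc, the histamine-forming enzyme, had 3 and 6. Of all genes with a peak in some list, 65.5% had fewer peaks at 120 h, a share to be set against the list genes that had a peak.

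The genes whose counts over the 10 lists were most like those of each member were found by the summed absolute difference in peak number. Pdcd2l differed from Nfe2 by 1 peak in total, with Cnot6 next at 2 (4 tied), and Nr2c1 from Tal1 by 2, with 4930447M23Rik next at 3 (5 tied). Rps6ka2 differed from Lyl1 by 4, with Armc12 next at 6 (3 tied), and Fam111a and Gfod1 each from Lmo2 by 4 (3 tied). Rgs9 and Slc25a51 each differed from Gata2 by 5 (2 tied), and Ywhaz from Zfpm1 by 12 with Afap1 next at 13. For Gata1, with at most 1 peak, no such search was made.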

How the data were processed

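The submitters' processing notes name BWA, MACS2 2.0 and STAR 2.5 without saying what each did, and the sources used here do not give the peak threshold, the handling of replicates or any Tn5 shift. HOMER annotated each list against mm10, per the file headers, while the notes name mm9. At 0 h, 10607 peaks lay within 1000 bp of their annotated TSS, but 1145 lay 4000 to 5000 bp away, so positions are treated as mm10, counted from 1. The deposited peak score was 0 for all peaks in the authors' lists and was not used; the distance to the TSS, in bp, is the authors'. No read counts were used and depth is unknown.

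Regions took the gene and distance of their widest peak. Counts, overlaps and regions were computed with Python 3.11.15, numpy 2.4.6, pandas 2.3.3 and scipy 1.17.1 and tested on simulated data; figures used matplotlib 3.10.9. Lists were grouped by time, each standing for 2 replicates, and no test between groups was possible. Members and gene lists were chosen with earlier results of these data known. List genes were named where counts at 120 h and 0 h differed by at least 3, up to 4 per list, others as examples; 1 gene that this rule names is not reported here. Likeness took the 2 closest genes of each member with at least 5 peaks in some list, ties in alphabetical order. Alternatives covered overlap, first and last list, promoter distance, list length, peak width and gene assignment.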

Additional observations from a re-analysis of the deposited data

How the results depend on the processing

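Of 80 alternative values computed, 69 stayed within the counting interval of the reported value, or within 1.5 times a reported count. For 35 of the 80, ratios of single genes on small counts, this was a weak criterion. Values counted as unchanged include 0 for Gata1, against -1.585, and -1.44 for Zfpm1, against -2.48. The 69 therefore says little about single genes. List length mattered most. When all lists were cut to their 23620 widest peaks, the log2 ratio of 120 h to 0 h was -0.41, 4 of 7 genes had fewer peaks at 120 h, and 4 regions each were lost, gained and constant. The ratio was then 0.65 for Lmo2 (5 peaks at 120 h, 3 at 0 h) and 2.32 for Nfe2 (2 and 0), both opposite in sign to the reported values. For Tal1 it was 0 (3 and 3). No share over all genes or regions was computed for the cut lists. With peaks of at least 300 bp, 5 regions were lost. With all peaks within 100 kb of the start, 16 were lost and 31 constant, since more regions enter. Without Zfpm1, chosen after the data were seen, 4 were lost. Leaving out a replicate could not be done, because each list stands for both replicates. No paired analysis was possible because the lists carry no replicate numbers. Depth is unknown, so a site absent from a list may be closed or undetected.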
